A study of Mus musculus with 2 samples.

Results

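Ligands and receptors of the epidermal growth factor (EGF) and platelet-derived growth factor (PDGF) families were examined in cultured mouse chondrospheres. The set holds 10 genes out of 23628 listed, chosen by symbol and not by their measured level. It covers the receptors *Egfr*, *Erbb2*, *Erbb3*, *Pdgfra* and *Pdgfrb*, and the ligands *Tgfa*, *Hbegf*, *Pdgfa*, *Pdgfb* and *Pdgfc*. Values come from 2 RNA-sequencing libraries of 1 condition, replicate 1 and replicate 2, both labelled MC-SOX9-GFPhi. The cells were chondrocytes of Sox9-GFP pups at postnatal day 7. The methods describe a homozygous *Sox9* IRES-EGFP knock-in, in which GFP is translated from the *Sox9* transcript, so the sort itself selected on *Sox9*. GFP-high cells of the femoral head that lacked CD31, Ter119 and CD45 had been sorted and grown as colonies in methylcellulose under low oxygen. The medium contained serum and added FGF2, BMP4, IGF1, LIF and TGF-β1, and its list of supplements names no EGF or PDGF family ligand. Both libraries share all of this, so no treatment, genotype or age was compared. The labels do not tie a library to a pup, and the difference between the libraries may be technical.

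EGF family ligands are made as membrane-anchored precursors that metalloproteases of the ADAM family release from the cell surface. They bind EGFR, which pairs with itself or with other ERBB receptors. ERBB2 has no known ligand of its own, and ERBB3 binds neuregulins and has a weak kinase. In cartilage, EGFR signalling is known for its part in growth plate remodelling and in the upkeep of the superficial layer. PDGFs are secreted dimers. PDGF-AA and PDGF-CC act through PDGFRα, PDGF-DD acts mainly through PDGFRβ, and PDGF-BB binds both receptors. PDGFRβ is best known from pericytes and PDGFRα from fibroblasts and other mesenchymal cells.

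In the chondrospheres, 8 of the 10 genes reached at least 1 CPM (a gene's reads scaled to a common library total) in both libraries. Across all listed genes the share was 50.3%. The receptor side was led by *Pdgfrb*, with *Egfr* and *Erbb2* at lower levels and *Pdgfra* at the lowest level of the 4 that passed. The ligand side was led by *Hbegf* and *Pdgfc*, followed by *Pdgfa* and *Tgfa*. *Erbb3* and *Pdgfb* did not reach 1 CPM in either library. The 4 receptors that passed this level differed by less than 2-fold between the libraries, whereas all 4 ligands that passed it were about 3-fold higher in replicate 2. Where 2 values are given for a gene, the first is from replicate 1. No test between groups was made, as the libraries are replicates of 1 condition.

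The sequences before the start of 2 of these ligands and 2 of these receptors are shown because the ligands differed by over 2-fold between the libraries and the receptors by less. Each line gives the 250 bases upstream of the RefSeq start (GRCm38.p6), 5′ to 3′ on the strand of the gene. Capitals mark GGGCGG, the core of the SP1 binding motif, on either strand. The windows are chr6:86194972-86195221 for *Tgfa*, chr3:81036166-81036415 for *Pdgfc*, chr11:16751953-16752202 for *Egfr* and chr5:75152001-75152250 for *Pdgfra*, all on the plus strand and none overlapping an annotated exon.
Tgfa: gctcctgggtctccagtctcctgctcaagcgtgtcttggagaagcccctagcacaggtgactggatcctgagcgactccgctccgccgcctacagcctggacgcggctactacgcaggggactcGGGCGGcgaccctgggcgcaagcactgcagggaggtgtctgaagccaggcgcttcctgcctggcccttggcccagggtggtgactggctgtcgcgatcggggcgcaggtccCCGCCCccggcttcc
Pdgfc: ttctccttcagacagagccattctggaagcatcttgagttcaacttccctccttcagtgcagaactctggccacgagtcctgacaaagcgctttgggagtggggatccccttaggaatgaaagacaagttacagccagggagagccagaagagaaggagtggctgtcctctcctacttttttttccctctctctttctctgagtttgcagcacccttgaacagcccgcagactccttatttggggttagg
Egfr: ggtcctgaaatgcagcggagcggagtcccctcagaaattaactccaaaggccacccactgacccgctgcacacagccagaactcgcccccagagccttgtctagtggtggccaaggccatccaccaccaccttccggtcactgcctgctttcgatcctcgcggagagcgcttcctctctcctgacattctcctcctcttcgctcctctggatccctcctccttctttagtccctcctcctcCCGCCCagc
Pdgfra: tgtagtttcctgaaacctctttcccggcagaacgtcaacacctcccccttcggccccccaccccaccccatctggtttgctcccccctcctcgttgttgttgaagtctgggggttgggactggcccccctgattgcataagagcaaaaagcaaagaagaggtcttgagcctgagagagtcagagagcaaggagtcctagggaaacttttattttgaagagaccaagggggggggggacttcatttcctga
The GGGCGG motif occurred 2 times before *Tgfa* and 1 time before *Egfr*, and not in the other windows printed. It was found in 32.7% of all 32851 windows of this length. The AP-1 motif TGANTCA, present in 6.75% of all windows, and the CRE motif TGACGTCA, present in 1.55%, were in none of the 4 windows, nor were CACGTG (6.02%) and the shorter ACGTG that it contains (16.6%). The GC content was 69.2% for *Tgfa*, 50.8% for *Pdgfc*, 60.8% for *Egfr* and 54.4% for *Pdgfra*, against a median of 52.4% over all windows. *Pdgfa* has 2 windows in the table, not printed, with 1 and 2 matches to GGGCGG, and *Erbb2* has none. No window of *Hbegf*, *Pdgfb*, *Pdgfrb* or *Erbb3* was read. Among the ligands with a window, *Tgfa*, *Pdgfa* and *Pdgfc*, no motif searched was held by all. A part of these motifs in the difference between the libraries was not tested.

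*Pdgfrb*, which encodes PDGFRβ, lies on chromosome 18 of GRCm38 from 61045150 to 61085061. Its level was 139.9 CPM in replicate 1 against 152 CPM in replicate 2, which averages 146 ± 8.30 CPM (SD, n = 2). *Pdgfra*, which encodes PDGFRα, lies on chromosome 5 from 75152292 to 75198215 and had 2.03 and 2.71 CPM, an average of 2.37 ± 0.481 CPM (SD, n = 2). These values rest on about 6053 and 6390 reads for *Pdgfrb* and on about 88 and 114 for *Pdgfra*. Both receptor genes were thus above the level of 3 reads (0.0693 and 0.0712 CPM) in both libraries, as were 68.5% of all genes. To compare genes, CPM values were divided by the annotated exon length in kilobases. On that scale *Pdgfrb* had 25.5 CPM per kilobase in replicate 1 and 27.7 in replicate 2, and *Pdgfra* had 0.203 and 0.271. The log2 ratio of *Pdgfrb* to *Pdgfra* per kilobase was 6.98 in replicate 1 and 6.68 in replicate 2, with a mean of 6.83 ± 0.21 (SD, n = 2). The gap was far larger than its spread between the libraries. *Pdgfrb* made up 99.2% and 99.0% of the summed level per kilobase of the 2 signalling receptors. *Pdgfrl*, a gene for a PDGF receptor-like protein without a kinase, was measured at 101 and 79.4 CPM.

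Among the PDGF ligands, *Pdgfc* and *Pdgfa* were high and the other two low. *Pdgfc* lies on chromosome 3 from 81036416 to 81214040, and its level was 52.7 CPM in replicate 1 against 166 CPM in replicate 2, an average of 109 ± 80.0 CPM (SD, n = 2). *Pdgfa*, on chromosome 5 from 138976014 to 138997370, had 23.0 against 73.9 CPM, an average of 48.4 ± 36.0 CPM (SD, n = 2). Replicate 2 was the higher library for both ligands. Their ratio stayed nearly the same: the log2 ratio of *Pdgfa* to *Pdgfc* per kilobase was -0.49 in replicate 1 and -0.46 in replicate 2, with a mean of -0.47 ± 0.02 (SD, n = 2). *Pdgfb* lies on chromosome 15 from 79995874 to 80014977, with 0.237 CPM in replicate 2, about 10 reads, and no reads in replicate 1. The level of *Pdgfb* in replicate 2 was 3.42 times the level of 3 reads in replicate 1. *Pdgfd*, the gene of the ligand that acts mainly through PDGFRβ, had 0.531 CPM (about 23 reads) in replicate 1 and 0.142 CPM (about 6 reads) in replicate 2. Together *Pdgfa* and *Pdgfc* therefore made up nearly the whole ligand level, with 57.9% in replicate 1 and 57.8% in replicate 2 from *Pdgfc*. The ligand genes with high levels were those whose products are known to act through PDGFRα, while the receptor gene with a high level was *Pdgfrb*.

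Both receptors of the EGF family that passed 1 CPM were found at similar levels in the 2 libraries. *Egfr*, on chromosome 11 from 16752203 to 16918158, had 15.1 and 15.8 CPM in replicates 1 and 2, which averages 15.4 ± 0.438 CPM (SD, n = 2). *Erbb2*, on the same chromosome from 98412470 to 98437716, had 17.7 and 22.6 CPM, which averages 20.2 ± 3.42 CPM (SD, n = 2). Per kilobase of exon, the level of *Egfr* was 1.34 and 1.39 CPM per kilobase and that of *Erbb2* was 3.41 and 4.34. The log2 ratio of *Egfr* to *Erbb2* per kilobase was -1.35 in replicate 1 and -1.64 in replicate 2, with a mean of -1.49 ± 0.21 (SD, n = 2), so *Erbb2* was the higher gene beyond the spread. *Pdgfrb* exceeded *Egfr* per kilobase by 19.1-fold and 19.9-fold. *Erbb3*, on chromosome 10 from 128567523 to 128589652, was at 0.508 CPM (about 22 reads) and 0.0237 CPM (about 1 read). The level of *Erbb3* in replicate 1 was 21.4 times that in replicate 2, with a 95% counting interval of 3.46 to 884. *Erbb4*, the fourth receptor of the family, had 0.531 CPM (about 23 reads) and 1.73 CPM (about 73 reads). *Erbb3* and *Erbb4* together were therefore a small part of the family, and *Egfr* and *Erbb2* made up nearly all of its summed level in both libraries.

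*Hbegf*, which encodes heparin-binding EGF-like growth factor, was the leading EGF family ligand. It lies on chromosome 18 from 36504927 to 36515805, and its 55.6 CPM in replicate 1 compared with 166 CPM in replicate 2, an average of 111 ± 78.4 CPM (SD, n = 2). *Tgfa*, which encodes TGF-α and lies on chromosome 6 from 86195223 to 86275719, had 8.94 against 26.0 CPM, an average of 17.5 ± 12.0 CPM (SD, n = 2). Again replicate 2 was the higher library for both. *Hbegf* exceeded *Tgfa* per kilobase by 8.35-fold and 8.60-fold in replicates 1 and 2, so that the log2 ratio averaged 3.08 ± 0.03 (SD, n = 2). *Hbegf* made up 88.0% of the summed ligand level per kilobase in replicate 1 and 77.7% in replicate 2. The remaining ligands of EGFR were low in replicate 1 and partly appeared in replicate 2. *Ereg*, which encodes epiregulin, had about 4 reads in replicate 1 and 795 in replicate 2, or 0.0924 and 18.9 CPM, and took 10.3% of the ligand level in replicate 2. *Areg*, which encodes amphiregulin, had about 1 read and 56 reads, a ratio of 57.5 with a 95% counting interval of 9.91 to 2311. *Btc*, which encodes betacellulin, was listed at 0 in replicate 1. In replicate 2 it had about 21 reads, or 7.19 times the level of 3 reads in replicate 1. *Egf* itself went the other way, with 1.71 and 1.19 CPM. Of the neuregulins, which bind ERBB3 and ERBB4, *Nrg1* had 2.73 and 7.24 CPM, *Nrg4* had 1.94 and 0.920 CPM, and *Nrg2* stayed under 1 CPM in both. *Epgn* and *Nrg3* are not listed in the files.

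**Figure D1:**
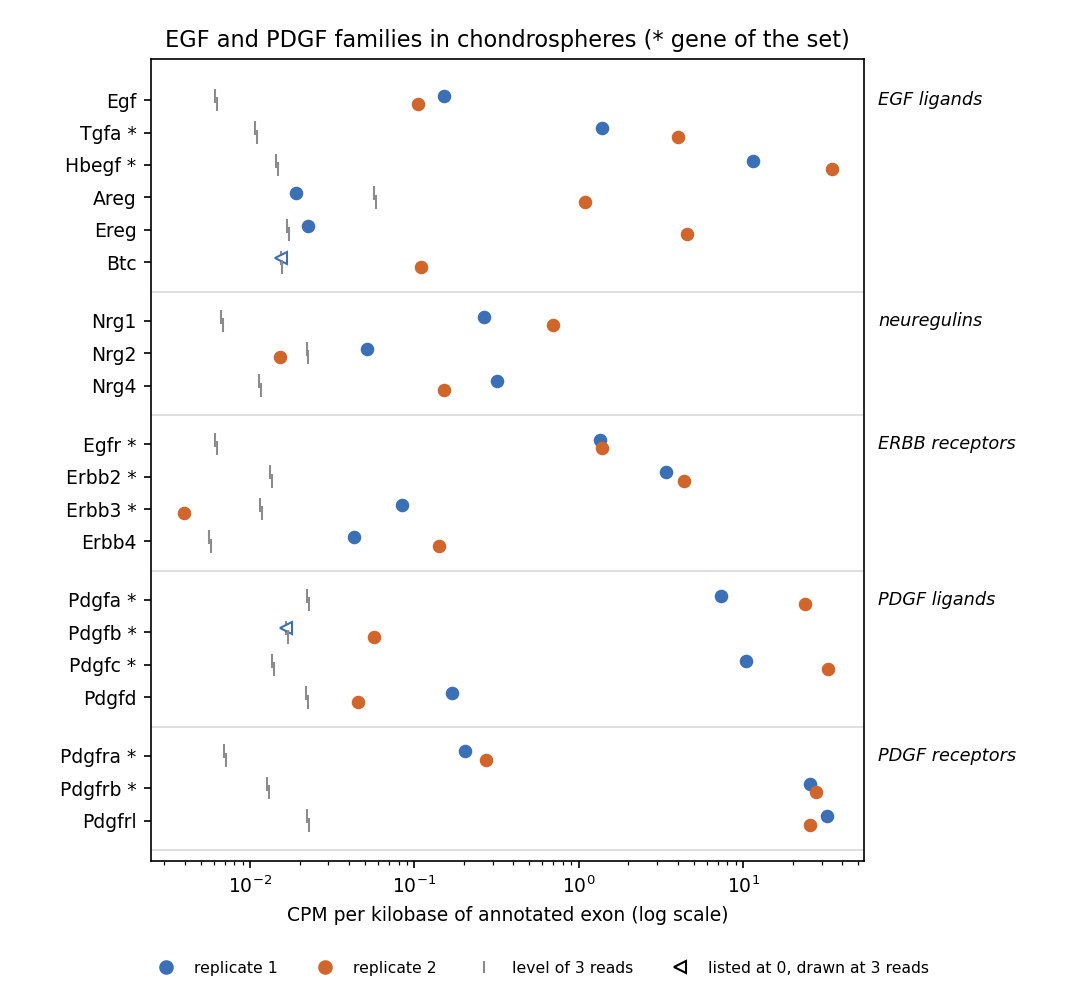
Levels of the EGF and PDGF family genes in replicate 1 (blue) and replicate 2 (orange), in CPM per kilobase of annotated exon on a log axis, with grey ticks at the level of 3 reads, open triangles for values of 0 drawn at that level, and an asterisk at the 10 genes of the set. *Pdgfrb* (25.5 and 27.7) lies far to the right of *Pdgfra* (0.203 and 0.271), and the orange points of *Tgfa*, *Hbegf*, *Pdgfa* and *Pdgfc* lie to the right of the blue ones while those of *Egfr* and *Pdgfrb* nearly coincide.

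The 8 genes at 1 CPM or more were ordered by level per kilobase. By the mean of both libraries *Pdgfrb* came first, then *Hbegf*, *Pdgfc*, *Pdgfa*, *Erbb2*, *Tgfa*, *Egfr* and *Pdgfra*. Replicate 1 had this order too, but in replicate 2 *Hbegf* and *Pdgfc* stood above *Pdgfrb*. *Pdgfrb* and *Hbegf* did not differ beyond their spread, with a log2 difference of 1.15 in replicate 1 and -0.32 in replicate 2. The same held for *Erbb2* and *Tgfa* (1.31 and 0.12) and for *Tgfa* and *Egfr* (0.04 and 1.53). The other 4 of the 7 neighbouring pairs differed by more than the SD of the difference. The smallest of these steps was from *Hbegf* to *Pdgfc*, 0.12 ± 0.05 on the log2 scale, and the widest was from *Egfr* to *Pdgfra*, 2.54 ± 0.25 (SD, n = 2 each). The place of *Pdgfrb* depends on the length used: divided by the longest coding transcript in place of all exons, *Hbegf* and *Pdgfc* stood above *Pdgfrb* by mean.

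The difference between the libraries was then examined for each gene as the log2 ratio of replicate 2 to replicate 1, with 0.1 CPM added to each value. The median over the 12631 genes that average 1 CPM or more was 0.30, and it was subtracted from every ratio. Of the 8 genes of the set that pass this level, 4 were more than 2-fold apart after centring, against 13.5% of all genes. All 4 were ligands and higher in replicate 2, where 7.43% of all genes were past 2-fold in that direction and 6.06% in the other. The centred log2 ratio was 1.22 for *Tgfa*, 1.28 for *Hbegf*, 1.35 for *Pdgfc* and 1.38 for *Pdgfa*. Without centring these ligands were 2.88 to 3.21 times higher in replicate 2. The counting error of their log2 ratios was between 0.03 and 0.09, so the depth of the libraries did not limit these differences. For the receptors, the centred log2 ratio was -0.25 for *Egfr*, -0.19 for *Pdgfrb*, 0.04 for *Erbb2* and 0.10 for *Pdgfra*. The sign for *Egfr* and *Pdgfrb* depends on the scaling, as their ratios without centring were 0.06 and 0.12. Over all genes, 938 were past 2-fold higher and 766 lower in replicate 2 after centring, and 1435 higher and 468 lower without it.

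**Figure D2:**
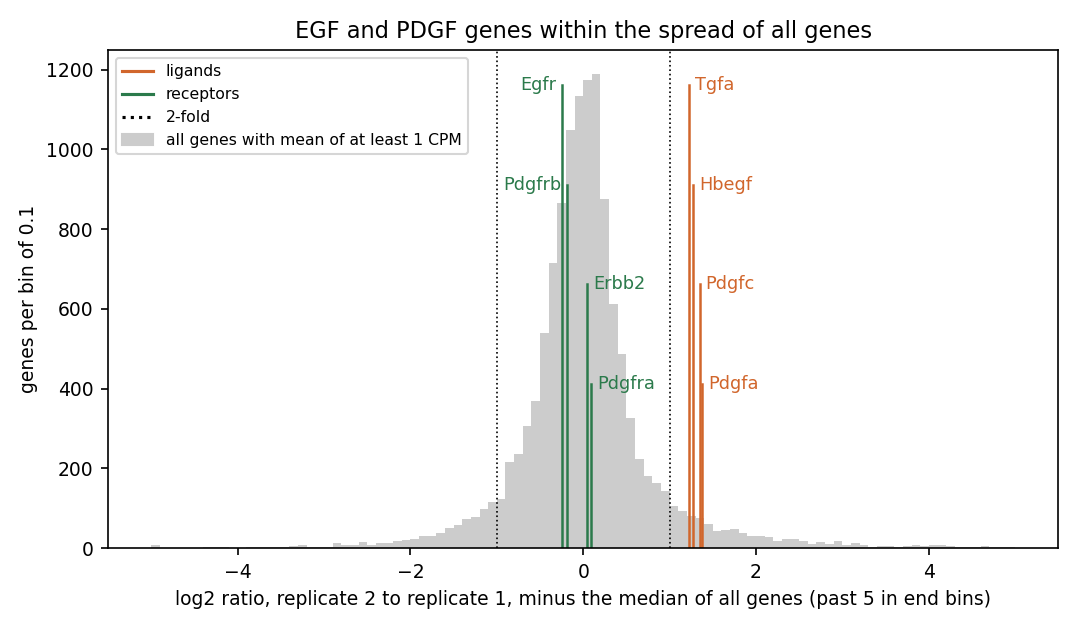
Histogram of the centred log2 ratio of replicate 2 to replicate 1 over the 12631 genes averaging 1 CPM or more (grey), with lines at the 4 receptors (green) and 4 ligands (orange) that pass this level and dotted lines at 2-fold. The receptors stand between -0.25 and 0.10, and the ligands stand between 1.22 and 1.38, all past 2-fold. The height of a line only spaces the names.

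As the ligands differed more between the libraries than the receptors, the balance of ligand to receptor also differed. *Hbegf* exceeded *Egfr* per kilobase by 8.61-fold in replicate 1 and by 24.8-fold in replicate 2. *Tgfa* stood at 1.03 times *Egfr* in replicate 1 and at 2.88 times in replicate 2. *Pdgfc* stood at 0.405 times *Pdgfrb* in replicate 1 and at 1.18 times in replicate 2, and *Pdgfa* at 0.289 and 0.856 times. Against *Pdgfra*, the gene of the receptor through which both ligands are known to act, *Pdgfc* was higher per kilobase by 51.0-fold and 120.3-fold and *Pdgfa* by 36.3-fold and 87.5-fold. These ratios are taken within a library and do not depend on how it was scaled. They do depend on the length used, here that of all exons, and were not recomputed with another. A ratio near 1 can therefore change direction: in plain CPM *Tgfa* (8.94) was below *Egfr* (15.1) in replicate 1. The change of a ratio between the libraries does not depend on length.

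Other genes of the EGF and PDGF pathways were taken from lists written by hand. Of the 4 genes for ligand shedding, all reached 1 CPM in both libraries, against 50.3% of all listed genes. *Adam17*, the main sheddase of TGF-α and HB-EGF precursors, had 27.1 and 33.3 CPM, and *Adam10* had 21.5 and 77.1 CPM. *Adam10* was the 1 gene of this list past 2-fold, with a centred log2 ratio of 1.53. *Rhbdf1* and *Rhbdf2*, which encode the iRhom proteins that carry ADAM17 to the cell surface, had 54.1 and 76.5 CPM and 7.35 and 14.0 CPM. The list's median centred log2 ratio was 0.41, where that of all genes is 0 by construction.

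Inhibitors of ERBB receptors were all present, as 8 of 8 genes reached 1 CPM in both libraries, against 50.3% of all listed genes. *Lrig3* was the highest of them at 140.5 and 107 CPM. *Errfi1*, which encodes MIG6, an EGFR inhibitor whose loss is known to harm mouse joints, had 13.2 and 24.7 CPM. *Cblb*, which encodes a ubiquitin ligase, had 6.40 and 41.4 CPM and was the 1 gene of the list past 2-fold, with a centred log2 ratio of 2.37. The related *Cbl* had 18.3 and 31.7 CPM, *Lrig1* had 8.41 and 10.9 CPM, and *Lrig2* had 8.78 and 9.99 CPM. *Socs4* had 14.4 and 19.6 CPM and *Socs5* 13.1 and 31.8 CPM.

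Of the 5 proteases that process PDGFs, 3 reached 1 CPM in both libraries, a share near the 50.3% of all listed genes. *Furin*, whose product cleaves the precursors of PDGF-A and PDGF-B, had 163 and 184 CPM. The related convertase genes were also high, with *Pcsk5* at 557 and 409 CPM and *Pcsk6* at 107 and 163 CPM. *Plat* encodes tissue plasminogen activator, which activates PDGF-CC. It had about 3 reads in replicate 1 and 114 in replicate 2, a ratio of 39.0 with a 95% counting interval of 13.0 to 192. *Plau*, whose product activates PDGF-DD, had 0.762 and 1.35 CPM.

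The shared signalling machinery below both receptor families was present throughout. All 12 adaptor genes, all 12 genes from RAS to ERK and all 9 genes from PI3K to AKT reached 1 CPM in both libraries. Across all listed genes the share was 50.3%. Past 2-fold were *Nck2* (8.37 and 25.2 CPM) among the adaptors and *Rasa1* (32.9 and 84.1 CPM) from RAS to ERK, both higher in replicate 2, and no gene from PI3K to AKT. The median centred log2 ratio was 0.28 for the adaptors, 0.13 from RAS to ERK and -0.13 from PI3K to AKT. Most of these intermediates thus differed by less than 2-fold between the libraries, as did the 4 receptors of the set at 1 CPM in both. *Erbb3* and *Erbb4* differed by more.

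Genes that are induced by ERK and restrain it differed more. Of 8 such feedback genes, 7 averaged 1 CPM or more and 6 of these were past 2-fold, all higher in replicate 2. Over all genes averaging 1 CPM or more, 13.5% were past 2-fold and 7.43% were so in that direction. *Spry4*, *Dusp4* and *Dusp5* passed the level only through replicate 2. Their CPM thus had to be higher there, though not by 2-fold. Of the 4 feedback genes at 1 CPM in both libraries 3 were past 2-fold. *Dusp6*, an ERK phosphatase, had 3.51 and 27.2 CPM. *Spred1* had 20.7 and 67.6 CPM and *Spred2* had 5.73 and 25.7 CPM. *Spry2* had 7.74 and 18.9 CPM and just missed the limit with a centred log2 ratio of 0.97, while *Spry1* stayed under 1 CPM in both. The list is not specific to EGF or PDGF, since FGF2 in the medium also acts through ERK.

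Immediate early genes, which growth factors induce within a short time, did not move as one group. Of 11 genes, 3 were past 2-fold higher and 4 past 2-fold lower in replicate 2, against 7.43% and 6.06% of all genes. The lower genes were *Egr1* (112 and 45.7 CPM), *Fos* (54.3 and 5.60 CPM), *Fosb* (68.6 and 4.27 CPM) and *Jun* (62.1 and 20.1 CPM). The higher genes were *Fosl1* (0.722 and 20.5 CPM), *Egr3* (0.393 and 6.74 CPM) and *Egr2* (0.485 and 1.71 CPM), which passed the level only through replicate 2.

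**Figure D3:**
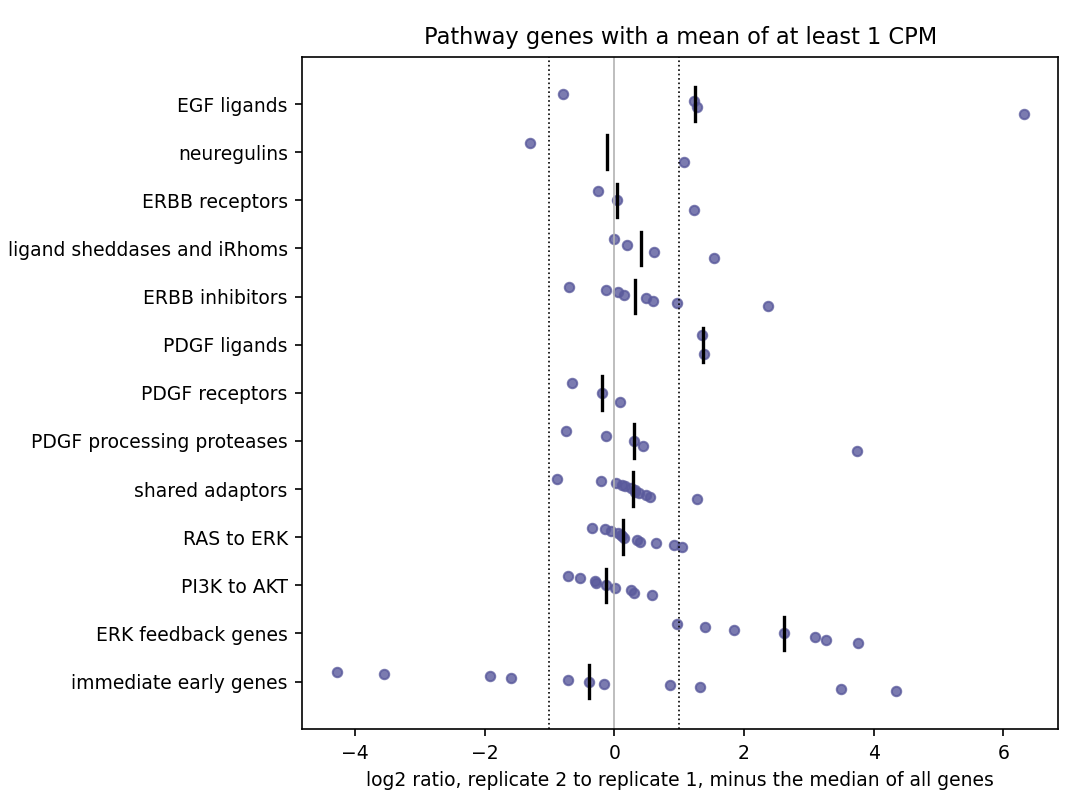
Centred log2 ratio of replicate 2 to replicate 1 for the genes of 13 pathway lists that average 1 CPM or more, 1 point per gene, with a bar at each list's median and dotted lines at 2-fold. The lists of adaptors, RAS to ERK and PI3K to AKT lie around 0, with medians of 0.28, 0.13 and -0.13, the ERK feedback genes lie to the right and the immediate early genes lie on both sides. The vertical offset within a list only separates points.

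The labelled cell type was checked with marker lists. All 10 chondrocyte genes, among them *Col2a1*, *Acan* and *Sox9*, reached 1 CPM in both libraries, against 50.3% of all listed genes. The sort had selected on *Sox9*, so its presence is not a check of the label. The levels of the 10 genes summed to 193865 and 131682 CPM. After centring, 9 of the 10 were lower in replicate 2, where 6315 of the 12631 genes averaging 1 CPM or more lie above 0 by construction. Of the 10, 4 were past 2-fold lower, against 6.06% of all genes. *Sox9* was lower only through centring, with a log2 ratio of 0.15 without it and -0.16 with it. Most of these genes moved opposite to the ligands, and their part in the ligand difference was not tested. In a bulk library, fewer cells of a type and less RNA per cell cannot be told apart. Genes on the osteoblast list summed to 5.18 and 53.5 CPM, of which *Dmp1* had 0.116 and 40.4 CPM. Of the 6, 2 reached 1 CPM in both libraries, against 50.3% of all listed genes. Whether these transcripts came from osteoblasts was not tested. *Dmp1* and *Alpl* (0.462 and 1.92 CPM) averaged 1 CPM or more only through replicate 2. Their CPM thus had to be higher there, though not by 2-fold. Of the 2 genes at 1 CPM in both, *Sp7* was past 2-fold higher in replicate 2, with a centred log2 ratio of 1.44. *Ibsp* was not, at 0.22. The part of the osteoblast genes in the ligand difference was not tested either.

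*Pdgfrb* and *Cspg4* are usual markers of pericytes, so the other genes of that list were read beside them. *Cspg4* had 538 and 619 CPM and *Acta2* had 53.4 and 93.0 CPM. These were the 2 of 8 listed genes at 1 CPM in both libraries, where the share of all genes was 50.3%. *Rgs5*, *Myh11*, *Des*, *Abcc9* and *Cnn1* were under 1 CPM in both libraries, and *Notch3* had 0.540 and 2.14 CPM. The list summed to 592 and 715 CPM, most of it from *Cspg4*. Fibroblast genes were likewise mixed. *Thy1*, *Dpt*, *Pi16*, *Dpp4* and *Cd34* were under 1 CPM in both libraries, whereas *Col1a1* had 1166 and 584 CPM, *Dcn* 879 and 267 CPM and *Fap* 14.3 and 27.4 CPM, and *Pdgfra* itself is on this list. Its sum was 2062 and 882 CPM.

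Markers of endothelial, leukocyte, erythroid and epithelial cells were low. The sort had gated on the first 3 of these cell types and on no epithelial marker. Across all listed genes, 50.3% reached 1 CPM in both libraries. None of the 7 endothelial genes reached 1 CPM in either library, *Cdh5*, *Kdr*, *Tek*, *Tie1* and *Emcn* were listed at 0 in both, and the list summed to 0.370 and 0.261 CPM. Of the 6 leukocyte genes listed, only *Cd68* reached 1 CPM in both libraries, and the list summed to 3.21 and 3.39 CPM. None of the 4 epithelial genes listed reached 1 CPM, with sums of 0.0462 and 0.190 CPM. Of the 5 erythroid genes *Epor* alone reached it in both, and that list summed to 2.43 and 2.07 CPM.

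**Figure D4:**
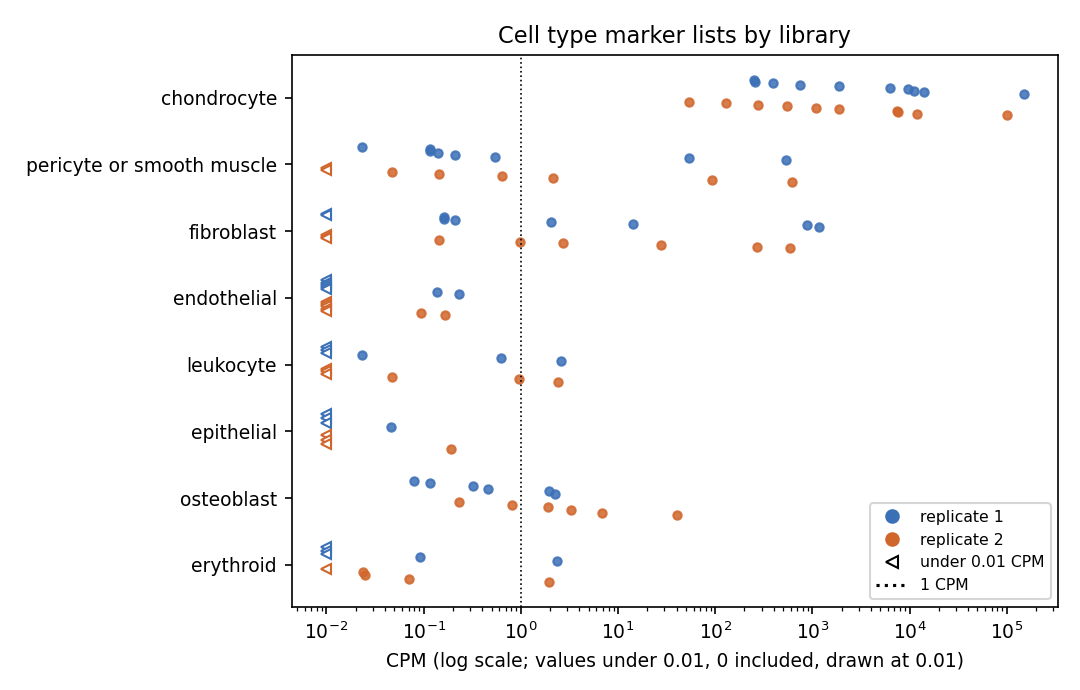
Levels in CPM (log axis) of the genes of 8 cell type marker lists in replicate 1 (blue) and replicate 2 (orange), 1 point per gene, with values under 0.01 CPM drawn as open triangles at 0.01 and a dotted line at 1 CPM. All chondrocyte genes lie to the right of 1 CPM and all endothelial and epithelial genes to its left, while the pericyte and fibroblast lists are divided.

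Annotated antisense transcripts overlap exons of some of these genes, and the sources used here do not state whether strand was used in counting. *Pdgfa* shares 813 exon bases with *6330403L08Rik* on the opposite strand, which had 11.8 and 26.3 CPM. Part of either level could belong to the other, so the level of *Pdgfa* is less certain than that of the other ligands. The antisense partners of *Pdgfc* and *Pdgfra*, *Gm16000* and *Gm42802*, stayed under 1 CPM in both libraries. *Erbb2* shares 9 exon bases with *Mien1* and *Tgfa* shares 118 with *Gm43917*, which was listed at 0. *Hbegf*, *Pdgfb*, *Pdgfrb*, *Egfr* and *Erbb3* have no exon overlap with another annotated gene.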

How the data were processed

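RNA-sequencing values of 2 libraries of 1 condition were used. Libraries were stranded and made from poly(A) RNA, and single-end reads of 50 bases were sequenced. Per the labels and methods, the authors aligned reads to GRCm38 with STAR 2.7.3a in Partek Flow 10.0.21.0801, assigned them to GENCODE M25 genes by Partek E/M, and deposited CPM values. An offset of 0.0001 CPM in each value was subtracted.

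The most frequent low value gives the CPM of 1 read (0.0231 in replicate 1 and 0.0237 in replicate 2), which implies 43300000 and 42200000 reads on genes. Of the values under 1 CPM, 62.0% and 60.9% were whole multiples of it within 0.01 reads, so no count model was fitted and read numbers are approximate. Intervals (95%, exact Clopper-Pearson on the 2 read numbers) and the level of 3 reads cover counting error only. The 10 highest genes took 43.4% and 34.7% of the total.

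Mean and SD over libraries, log2 ratios between genes of 1 library and log2 ratios between libraries (pseudocount 0.1 CPM, which understates changes of low genes, over genes averaging 1 CPM or more) were computed. Exon lengths and coordinates came from GENCODE M21 (GRCm38), where 97.2% of the 23628 names matched 1 gene. Upstream sequences came from RefSeq on GRCm38.p6, and windows of 6 of the 10 genes were read. *Hbegf* and *Pdgfrb* were not searched, because entries on chromosome 18 were left out. No window was used for *Erbb3* and *Pdgfb*. Likeness of pattern to other genes was not computed, because 2 libraries of 1 condition give none. The ratio computation was checked on simulated libraries in which 200 genes were changed 4-fold. The noise added there was smaller than the spread of the data, where the SD of the log2 ratio across genes was 0.83. That check therefore bears on the computation and not on the counts past 2-fold.

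The named genes were the 10 of the set, every gene of the ligand, receptor and ERBB inhibitor lists, and the highest and lowest of the other lists. Further list genes, most of them past 2-fold, were named after their values were seen. The members and lists were chosen with earlier results of these data known. Computations ran in Python 3.11.15 with scipy 1.17.1, pandas 2.3.3 and numpy 2.4.6, and plots were drawn with matplotlib 3.10.9.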

Additional observations from a re-analysis of the deposited data

How the results depend on the processing

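For 29 results, 103 values were recomputed with 1 choice changed. The limit was the SD over the libraries for levels and ratios between genes, and 1.5 times for counts. For ratios between the libraries it was the counting error. By these limits 76 values stayed the same and 27 moved. *Pdgfb* has no counting error, so its ratio between the libraries always counted as moved. No value past 2-fold changed sign. The log2 ratios between the libraries of *Egfr* and *Pdgfrb*, neither past 2-fold, went from -0.25 and -0.19 to 0.06 and 0.12 without centring. Leaving out 1 of the 2 libraries moves a mean by less than the SD, by arithmetic. Such values of levels and ratios between genes are among the 76 and had to stay the same. With the total taken without the 10 highest genes, *Pdgfrb* went from 146 to 239 CPM and *Egfr* from 15.4 to 25.4 CPM. The levels of *Erbb2* and *Pdgfra* moved too, and those of the other genes of the set rose by less than their SD. Division by the longest coding transcript gave log2 ratios of 6.29 for *Pdgfrb* to *Pdgfra*, 4.15 for *Pdgfrb* to *Egfr*, -0.41 for *Pdgfa* to *Pdgfc* and 3.59 for *Hbegf* to *Tgfa*. Without division by length they were 5.95, 3.24, -1.18 and 2.66, and the ratio of *Egfr* to *Erbb2* was -0.37. These ratios between genes all kept their direction. The count of all genes past 2-fold, 1704, was 4362 without the filter on low values and 565 over genes averaging 10 CPM or more. The count of 4 ligands past 2-fold was 4 under every scaling, with a pseudocount of 1 CPM and over genes averaging 10 CPM or more, and 6 genes of the set were past it without the filter. The order of neighbours by the longest coding transcript was added after seeing the data. With 2 libraries, replicate error rests on 1 difference for each gene. No paired analysis was possible because the samples form 1 group.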
